A study of Homo sapiens with 18 samples.

Results

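The genes CTGF, CYR61, ANKRD1, AMOTL2, AXL and LATS2 are widely used as a transcriptional readout of YAP, and their level was followed in A549 cells, an established line of human lung adenocarcinoma epithelial cells, after exposure to Ludox silica nanoparticles (NPs). The members were the non-control probes whose gene name in the scanner files was one of these 6 names, which gave 9 of the 41000 probes and 6 of the 30815 gene names on the array. CYR61 had 3 probes, LATS2 had 2 and each of the other genes had 1. Of the 9 probes, 9 passed the filter on missing values, although ANKRD1 was close to background. The current symbols of CTGF and CYR61 are CCN2 and CCN1.

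The 18 arrays, Agilent's for 1 dye, formed 6 groups, each with biological replicates lettered A, B and C. Cells were exposed for 2 h without serum to SM30 NPs (9 nm in diameter) and left for 3 h in medium with serum, or were exposed in the same way to AS30 NPs (18 nm) and left for 3 h or 22 h. Each of these groups had its own control group, which went through the same serum-free step and recovery without NPs. The study reports the same dose, as mass per volume, for both particles on the arrays. All groups were the same cell line with no genetic change, and SM30 has no group at 22 h. The epithelial markers KRT8, KRT18, CDH1 and EPCAM were well above background on 18 of 18 arrays. PECAM1 and PDGFRB were well above background on 0 arrays, CDH5 and DCN on 1, PTPRC on 5, COL1A2 on 7 and VWF on 11, while COL1A1, CD14 and CD3E passed on 18. None of the 4 epithelial markers was called in any treated group.

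YAP and its relative TAZ (gene WWTR1) are coactivators that enter the nucleus and bind DNA through the TEAD factors. They are active in spread cells under tension, and the Hippo kinases LATS1 and LATS2 phosphorylate them and hold them in the cytoplasm. CTGF and CYR61 encode secreted matricellular proteins, ANKRD1 encodes a nuclear ankyrin repeat protein, AXL encodes a receptor tyrosine kinase, and AMOTL2 and LATS2 encode inhibitors of YAP that are themselves YAP targets.

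The stretch before the transcription start of each member was read from RefSeq promoter sequences of build GRCh38.p14, in which 5 of the 6 members were matched and CYR61 was not. The motifs searched on both strands were the core of the TEAD site, an AP-1 motif and the CArG box of serum response factor. The TEAD core was GGAATG, written CATTCC when it lies on the opposite strand. The AP-1 motif was TGANTCA, in which N is any base. These motifs share no overlap in the matches below. The 4 stretches shown are those of CTGF, where the matches were most numerous, of AMOTL2, the other matched gene that fell, of ANKRD1, and of LATS2, which had none. They run 5′ to 3′ along the gene over the 250 bases before the start, and capitals mark a motif match.
CTGF (CCN2), chr6:131951373-131951622, minus strand: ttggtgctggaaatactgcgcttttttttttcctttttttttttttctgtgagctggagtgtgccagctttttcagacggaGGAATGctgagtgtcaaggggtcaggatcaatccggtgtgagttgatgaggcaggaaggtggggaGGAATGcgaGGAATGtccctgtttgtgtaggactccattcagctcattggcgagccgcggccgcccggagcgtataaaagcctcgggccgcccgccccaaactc
AMOTL2, downstream start, chr3:134374448-134374697, minus strand: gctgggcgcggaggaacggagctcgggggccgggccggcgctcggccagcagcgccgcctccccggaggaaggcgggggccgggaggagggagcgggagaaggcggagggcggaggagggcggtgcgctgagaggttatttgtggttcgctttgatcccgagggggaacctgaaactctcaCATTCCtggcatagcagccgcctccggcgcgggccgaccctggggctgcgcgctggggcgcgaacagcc
ANKRD1, chr10:90921088-90921337, minus strand: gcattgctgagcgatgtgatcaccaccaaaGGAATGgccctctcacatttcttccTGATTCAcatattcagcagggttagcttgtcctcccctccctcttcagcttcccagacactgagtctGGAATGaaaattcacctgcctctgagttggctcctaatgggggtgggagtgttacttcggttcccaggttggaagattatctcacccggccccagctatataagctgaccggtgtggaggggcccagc
LATS2, chr13:21061587-21061836, minus strand: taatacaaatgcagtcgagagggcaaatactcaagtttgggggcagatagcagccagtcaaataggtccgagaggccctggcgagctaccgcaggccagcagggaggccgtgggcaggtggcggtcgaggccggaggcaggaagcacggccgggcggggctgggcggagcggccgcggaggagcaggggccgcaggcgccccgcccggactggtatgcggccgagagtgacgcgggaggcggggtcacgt

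The CTGF stretch held 3 TEAD motif matches, which began 169, 104 and 95 bases before the start. The downstream AMOTL2 start held 1, on the opposite strand and beginning 69 bases before the start, and the upstream AMOTL2 start held 0. ANKRD1 held 2, beginning 220 and 128 bases before the start, and 1 AP-1 match between them, TGATTCA, with T at the free position. AXL held 1 before the downstream of its 2 starts, and LATS2 held 0. A TEAD motif match was thus present in 4 of the 7 stretches of the 5 matched members, against 11.9% of 35116 promoters in the same window. The AP-1 motif was present in 6.57% and the CArG box in 1.16% of these promoters, and 0 of the 5 matched members had a CArG box match. A match is a description of the sequence and was not tested as a binding site.

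**Figure D1:**
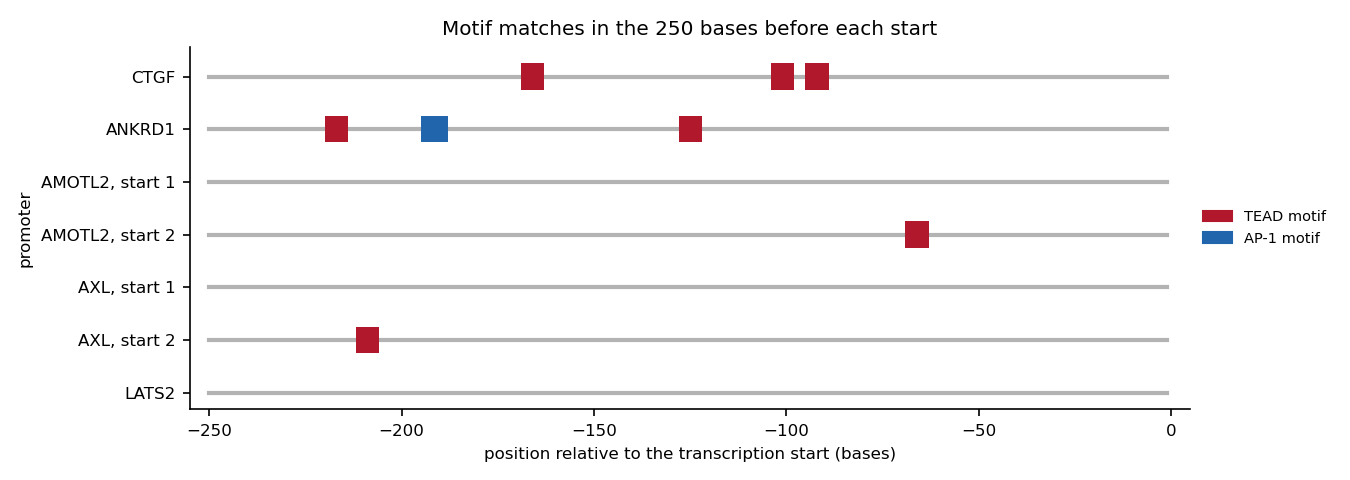
Each grey line is the stretch of 250 bases before a RefSeq transcription start, with distance from the start in bases on the x axis and 1 row for each promoter, and boxes mark motif matches on either strand. CTGF carries 3 TEAD motif matches and ANKRD1 carries 2, whereas LATS2 carries 0.

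Levels are given as log2 of the processed signal after quantile normalization, so a difference of 1 is a factor of 2, and a level is compared only with the same probe on other arrays. A gene was called when the limma test over all probes gave a Benjamini-Hochberg adjusted p below 0.05. Errors of differences are standard errors (SE) from that fit, in which the 6 groups share 1 estimate of the spread. The probe with the highest mean signal stands for a gene unless another is named. No spot was saturated. The share of spots well above background was 69.0% to 72.4% on the SM30 arrays and 65.5% to 69.9% on their controls, 62.5% to 67.1% and 52.4% to 61.9% in the AS30 set at 3 h, and 56.9% to 67.0% and 51.9% to 58.4% in the AS30 set at 22 h. CTGF, CYR61, AMOTL2, AXL and LATS2 were well above background on every array. The arrays came from 5 slides, and at 3 h no AS30 array shared a slide with its controls, so that slide and AS30 exposure cannot be told apart within that set.

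At 3 h after either particle, CTGF, CYR61 and AMOTL2 were below every control array on all treated arrays. How many of all probes separated treated from control arrays in this way was not counted. Here and below, a separation without overlap is therefore a description of the arrays. After SM30, 4 of the 6 members were called, with CTGF, CYR61 and AMOTL2 lower and LATS2 higher, against 8.78% of all 28665 probes tested (4.79% higher and 4% lower). After AS30 at 3 h, 3 of the 6 were called, all lower, against 4.59% of 28618 probes (2.4% higher and 2.19% lower). This last share depended on single arrays. It was 311 of 28614 probes without AS30 array B and 5463 of 28549 without AS30 control C. That control had the fewest spots well above background in its set (52.4%). At 22 h after AS30, 0 of the 6 were called, against 4.99% of 28223 probes. An unadjusted p below 0.05 was found for 3 of the 6, and for 6146 of the 28223 probes. In these bulk samples, fewer cells with a transcript and less of it per cell cannot be told apart. The median difference over the 5 genes other than ANKRD1 was -0.82 after SM30, -0.79 after AS30 at 3 h and -0.36 after AS30 at 22 h, and the median over all probes was -0.05, 0.01 and -0.01 in the same order.

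**Figure D2:**
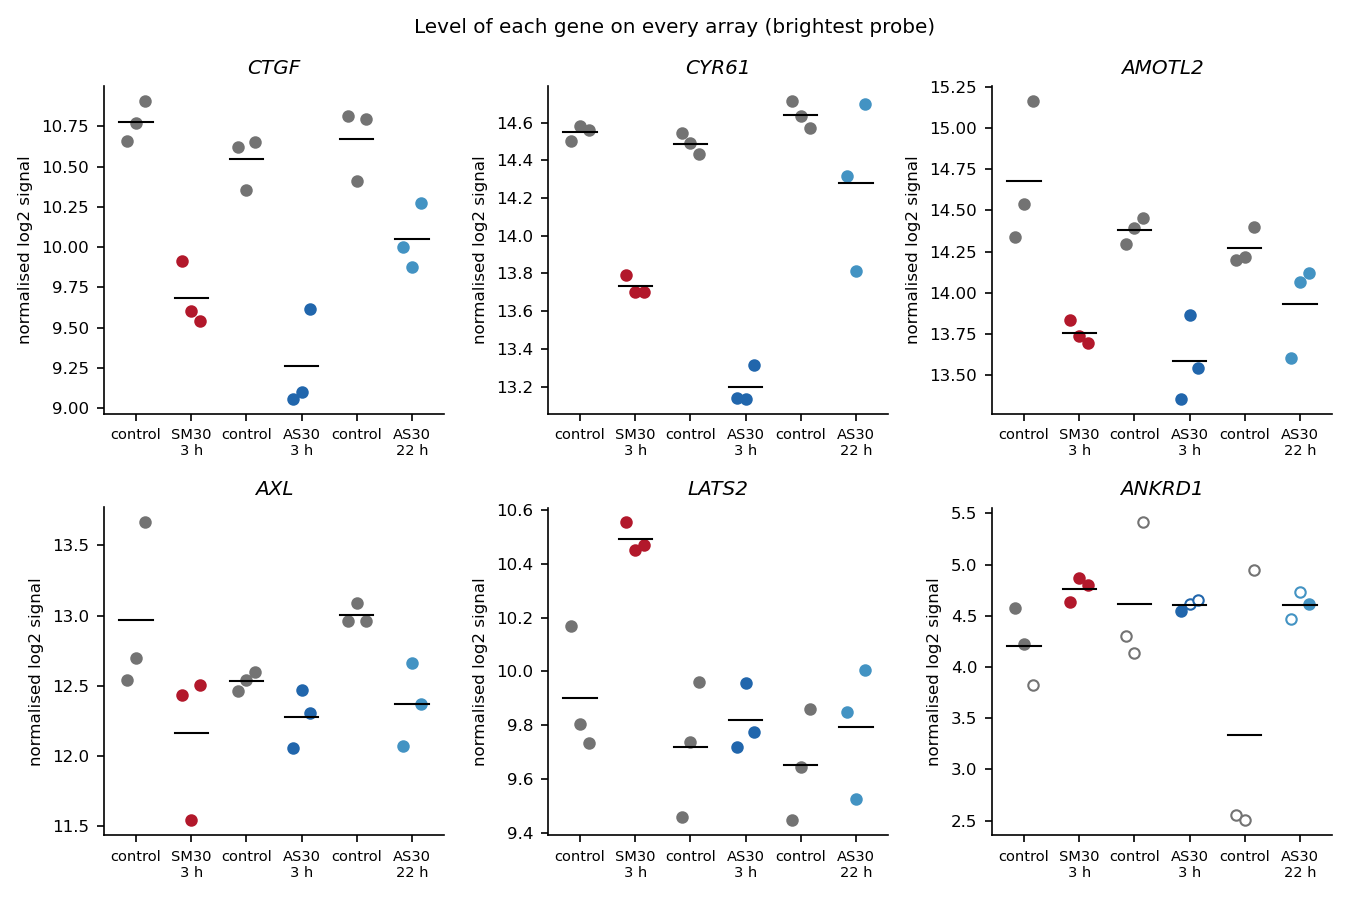
Points are single arrays, 3 for each group, with normalised log2 signal on the y axis and the 6 groups on the x axis, each treated group to the right of its controls. Bars are means over the points shown, and open points were not well above background. CTGF, CYR61 and AMOTL2 lie below their controls on all 3 arrays after SM30 and after AS30 at 3 h, and ANKRD1 is close to background in all groups.

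CTGF encodes connective tissue growth factor, a matricellular protein induced by YAP and by TGF-beta. Its probe lies at chr6:132311823-132311882 on the minus strand in hg18, the build of the scanner files. The log2 level was 10.66, 10.77 and 10.91 on SM30 control arrays A, B and C, and 9.91, 9.60 and 9.54 after SM30. It was 10.62, 10.35 and 10.66 on the AS30 controls at 3 h and 9.06, 9.10 and 9.62 after AS30. The treated arrays were below every control array in both sets, with no overlap. The difference was -1.09 ± 0.17 (SE, n = 3 arrays a group, limma adjusted p = 0.0018) after SM30, which left 46.9% of the control signal. After AS30 at 3 h it was -1.28 ± 0.17 (limma adjusted p = 0.0021), or 41.1% of control. At 22 h the level was 10.81, 10.41 and 10.79 on the controls and 10.00, 9.88 and 10.27 after AS30. The treated arrays were again below every control array, and the difference of -0.62 ± 0.17 missed the threshold (limma adjusted p = 0.055). This p was 0.017 with normexp background correction and 0.041 when probes had to be well above background on every array. It was below the threshold in only 5 of 30 alternatives, and the highest limma adjusted p among them was 0.39.

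CYR61 encodes a second matricellular protein of the same family. The log2 level of its brightest probe was 14.50, 14.58 and 14.56 on SM30 control arrays A, B and C and 13.79, 13.70 and 13.70 after SM30. It was 14.54, 14.49 and 14.43 on the AS30 controls at 3 h and 13.14, 13.14 and 13.31 after AS30. The arrays of a group lay close together and the treated arrays were well below the controls. The difference was -0.82 ± 0.16 (SE, n = 3, limma adjusted p = 0.0064) after SM30 and -1.29 ± 0.16 (limma adjusted p = 0.0011) after AS30 at 3 h, or 56.8% and 40.8% of control. At 22 h the controls were at 14.71, 14.63 and 14.57, and the AS30 arrays at 14.32, 13.82 and 14.70. Array C after AS30 was above 2 of the 3 controls, so these groups overlapped, and the difference of -0.36 ± 0.16 was not called (limma adjusted p = 0.20). It was -0.13 without AS30 array B and -0.57 without AS30 array C, and was called in neither case.

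The 3 CYR61 probes lie within 1 kb of each other on the plus strand of chromosome 1, at chr1:85821541-85821600 for the brightest, chr1:85821759-85821818 for the next and chr1:85821032-85821091 for the third in hg18. They target the same transcript and are not independent replicates. After SM30 the other probes differed from control by -0.73 ± 0.15 and -0.81 ± 0.19 (limma adjusted p = 0.0095 and 0.014). After AS30 at 3 h they differed by -1.10 ± 0.15 and -1.06 ± 0.19 (limma adjusted p = 0.0024 and 0.0069). All 3 probes were therefore called in both comparisons at 3 h, and at 22 h none was, with differences from -0.37 to -0.27.

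AMOTL2 encodes an angiomotin-like scaffold that binds YAP at cell junctions and the actin cytoskeleton. Its probe lies at chr3:135557432-135557491 on the minus strand in hg18. The log2 level was 14.34, 14.54 and 15.17 on SM30 control arrays A, B and C and 13.83, 13.74 and 13.69 after SM30. It was 14.29, 14.39 and 14.46 on the AS30 controls at 3 h and 13.36, 13.87 and 13.54 after AS30. The groups did not overlap, and the SM30 control C stood above the other controls. The difference was -0.93 ± 0.20 (SE, n = 3, limma adjusted p = 0.0095) after SM30 and -0.79 ± 0.20 (limma adjusted p = 0.036) after AS30 at 3 h, or 52.6% and 57.7% of control. Without control C the SM30 difference was -0.69 and was still called. The AS30 call was close to the threshold and was lost in 14 of 30 alternatives, in which the difference ranged from -0.93 to -0.68. At 22 h the controls were at 14.20, 14.21 and 14.40 and the AS30 arrays at 13.60, 14.07 and 14.12, all below every control, with a difference of -0.34 ± 0.20 that was not called (limma adjusted p = 0.33) and was -0.18 without AS30 array A.

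AXL encodes a receptor tyrosine kinase of the TAM family, which binds GAS6, and its probe lies at chr19:46459235-46459294 on the plus strand in hg18. The log2 level was 12.54, 12.70 and 13.66 on SM30 control arrays A, B and C and 12.44, 11.54 and 12.51 after SM30. Every SM30 array was below every control, yet the spread was wide in both groups, and the difference of -0.80 ± 0.28 (SE, n = 3) was not called (limma adjusted p = 0.094). In the AS30 set at 3 h the controls were at 12.46, 12.54 and 12.60 and the treated arrays at 12.06, 12.47 and 12.30. These overlapped, with a difference of -0.26 ± 0.28 (limma adjusted p = 0.61). At 22 h the controls were at 12.96, 13.09 and 12.96 and the AS30 arrays at 12.07, 12.66 and 12.37. All 3 were below the controls, and the difference of -0.64 ± 0.28 was not called (limma adjusted p = 0.20). Without control C the SM30 difference was -0.45. Of the other TAM genes, the receptors TYRO3 and MERTK and the ligands GAS6 and PROS1, 0 of 4 were called against controls in any set.

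LATS2 encodes the kinase that phosphorylates YAP. Its brighter probe, at chr13:20446786-20446845 on the minus strand in hg18, had log2 levels of 10.17, 9.80 and 9.73 on SM30 control arrays A, B and C and 10.55, 10.45 and 10.47 after SM30. The SM30 arrays were above every control, and the difference of 0.59 ± 0.17 (SE, n = 3, limma adjusted p = 0.040) was called, the opposite direction to the other called members. Its second probe, at chr13:20445929-20445988, was at 9.42, 9.42 and 9.45 on the controls and 9.81, 9.79 and 9.78 after SM30. That probe also separated these groups, but it varied more elsewhere, with 8.44, 8.92 and 9.53 on the AS30 controls at 3 h, and with the spread shared over groups the difference of 0.36 ± 0.24 was not called (limma adjusted p = 0.40). The call on the brighter probe was lost in 13 of 31 alternatives. After AS30 the brighter probe differed from control by 0.10 ± 0.17 at 3 h and 0.14 ± 0.17 at 22 h, and the groups overlapped in both sets. The second probe differed by 0.47 ± 0.24 at 3 h, above its value after SM30, and by 0.21 ± 0.24 at 22 h. It was called in neither (limma adjusted p = 0.26 and 0.67), and its groups also overlapped.

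ANKRD1 was too close to background to be followed. Its probe lies at chr10:92662542-92662601 on the minus strand in hg18. It was well above background on 3 of 3 arrays after SM30, on 2 of 3 SM30 controls, on 1 array after AS30 at 3 h, on 1 after AS30 at 22 h and on 0 of the 6 AS30 controls. With all spots kept, the log2 level was 4.58, 4.23 and 3.82 on SM30 controls A, B and C and 4.63, 4.87 and 4.80 after SM30, a difference of 0.56 ± 0.28 (SE) that was not called (limma adjusted p = 0.25). In the AS30 sets it ranged from 2.50 to 5.41 over the 12 arrays. The fit left out control arrays A and B at 22 h, where the spot was not positive and significant, and no size of difference is given for ANKRD1 in the AS30 sets.

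**Figure D3:**
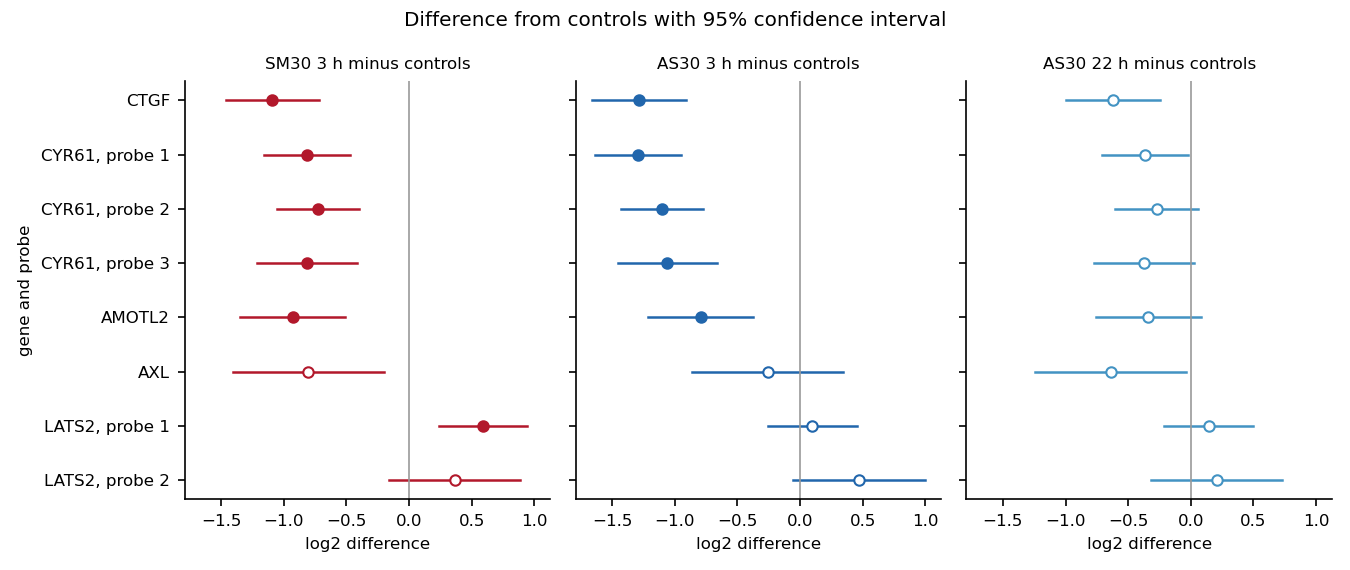
Points are log2 differences from controls on the x axis for each probe of the genes other than ANKRD1 on the y axis, with bars for the 95% confidence interval, and filled points were called. The 5 probes of CTGF, CYR61 and AMOTL2 are filled at 3 h after both particles, LATS2 is filled for its brighter probe after SM30, and all points are open at 22 h.

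Slide and scan run were tested as batches. Slide 2 held SM30 array A and the 3 SM30 controls, and on it SM30 differed from control by -0.86 for CTGF, -0.76 for CYR61, -0.85 for AMOTL2 and 0.65 for LATS2. On slide 5, which held the 3 AS30 arrays at 22 h and control C, the differences were -0.74 for CTGF, -0.29 for CYR61 and -0.47 for AMOTL2. With slide as a fixed block the SM30 values were the same as on slide 2, and the AS30 values at 3 h, which then rest on 22 h controls shared between slides, were -0.89 for CTGF, -1.21 for CYR61 and -0.81 for AMOTL2. None of the members was then called, with limma adjusted p from 0.11 to 0.25 for the genes called after SM30 and from 0.17 to 0.62 for those called after AS30 at 3 h. In that fit 4 members after SM30 and 2 after AS30 at 3 h had an unadjusted p below 0.05, and over all probes 335 and 337 were called. When each comparison was fitted on its own 6 arrays, the same 4 members were called after SM30, but so were 5221 of all 28665 probes, against 2518 in the main fit. In the AS30 fit at 3 h, 0 members and 0 of all 28618 probes were called. The unadjusted p was below 0.05 for 3 members in that fit. How many of all probes had such a p was not counted in either fit, so these member counts lack a background.

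**Figure D4:**
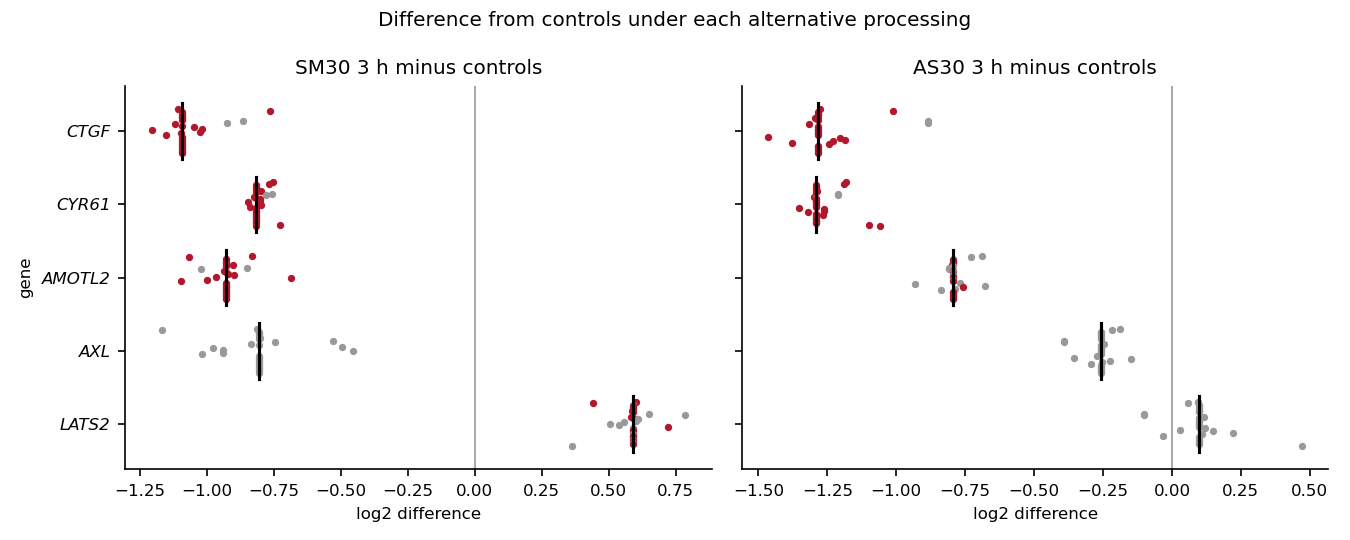
Dots are log2 differences from controls on the x axis under each alternative processing for the genes on the y axis, red where called, and black lines mark the values reported above. CTGF, CYR61 and AMOTL2 stay below 0 under every alternative shown, while LATS2 after AS30 lies on both sides of 0.

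Both 3 h responses were compared directly by the difference between them, each relative to its own controls. Of the 6 members 0 were called, against 0.0489% of 28618 probes, and 0 had an unadjusted p below 0.05, against 3810 of these probes. SM30 minus AS30 was 0.19 for CTGF with a 95% confidence interval from -0.34 to 0.72, 0.48 for CYR61 from -0.01 to 0.96, -0.13 for AMOTL2 from -0.73 to 0.46, -0.55 for AXL from -1.40 to 0.31 and 0.49 for LATS2 from -0.01 to 0.99. The LATS2 response was thus not shown to be particular to SM30.

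The later AS30 response was compared with the earlier one in the same way. Of the 6 members 0 were called, against 0.245% of 28176 probes, while 2 had an unadjusted p below 0.05, against 4357 of these probes. The 22 h response minus the 3 h response was 0.93 ± 0.23 (SE) for CYR61, with a 95% confidence interval from 0.44 to 1.41 and a limma adjusted p of 0.093, and 0.66 ± 0.25 for CTGF, from 0.13 to 1.19 (limma adjusted p = 0.23). Both comparisons share no control array but share the fit. For AMOTL2 the difference was 0.45 ± 0.28. These values are in the direction of a smaller fall at 22 h, which the adjusted test did not call.

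In the controls themselves, CTGF was at a mean of 10.78 ± 0.13 (SD, n = 3) in the SM30 set, 10.54 ± 0.17 in the AS30 set at 3 h and 10.67 ± 0.23 at 22 h. CYR61 was at 14.55 ± 0.04, 14.49 ± 0.06 and 14.64 ± 0.07 in the same order. Between the AS30 controls at 22 h and 3 h 0 of the 6 members were called, against 1.3% of 28179 probes. Between both 3 h control sets 0 of 6 were called, against 26.8% of 28620 probes, and the differences of the 5 genes other than ANKRD1 ran from 0.06 for CYR61 to 0.43 for AXL.

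Of YAP1, WWTR1 and TEAD1 to TEAD4, 1 of 6 was called after SM30 and 0 after AS30 at 3 h or 22 h. Over all probes 8.78%, 4.59% and 4.99% were called in the same order. YAP1 rose by 0.45 ± 0.12 (SE, n = 3, limma adjusted p = 0.035) after SM30, but its second probe gave 0.04, and after AS30 at 3 h it differed by 0.11 ± 0.12. WWTR1 differed by 0.16 and 0.06, TEAD1 by -0.21 and -0.34, TEAD2 by -0.33 and 0.10, TEAD3 by -0.32 and 0.13, and TEAD4 by -0.30 and -0.13 after SM30 and AS30 at 3 h.

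Of 15 tested Hippo kinases and regulators, each by its brightest probe, 5 rose and 2 fell after SM30. After AS30 0 rose and 2 fell at 3 h, and 0 were called at 22 h. The shares of all probes called were 8.78%, 4.59% and 4.99%. The median differences were 0.03, 0.26 and -0.03. After SM30 the FERM protein FRMD6 rose by 1.10 ± 0.25, the TEAD cofactor VGLL4, which competes with YAP, by 0.77 ± 0.17, the angiomotin relative AMOTL1 by 0.75 ± 0.22, the kinase MAP4K4 by 0.74 ± 0.18 and the kinase TAOK1 by 0.58 ± 0.12 (limma adjusted p from 0.0071 to 0.045). The second probes of FRMD6 and VGLL4 had the same sign and missed the threshold (limma adjusted p = 0.13 and 0.059), and 1 of the 3 other probes was called for AMOTL1 and for MAP4K4. After AS30 at 3 h the second probe of AMOTL1 rose by 0.98 ± 0.19 and that of the kinase STK4 fell by 1.21 ± 0.30 (limma adjusted p = 0.012 and 0.038). The remaining probes of AMOTL1 and STK4 were not called in that comparison. NF2, the gene for merlin, fell by 0.52 after SM30 and by 0.53 after AS30 at 3 h on its brightest probe alone, since its other 3 probes were not called. WWC1, the gene for the scaffold KIBRA, fell by 0.53 ± 0.12 after SM30 and by 0.85 ± 0.12 after AS30 at 3 h (limma adjusted p = 0.015 and 0.0024). LATS1 was well above background on 0 arrays of both 3 h sets, and AMOT did not pass the filter.

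Among 16 other genes listed as YAP targets, 5 fell and 1 rose after SM30, 4 fell and 0 rose after AS30 at 3 h, and 0 were called at 22 h. The shares of all probes called were 8.78%, 4.59% and 4.99%. The list medians were -0.26, -0.47 and 0.04. The guanine nucleotide exchange factor ARHGEF17 fell by 1.09 ± 0.15 after SM30 and by 1.06 ± 0.15 after AS30 at 3 h (limma adjusted p = 0.00059 and 0.0022), and at 22 h its difference was -0.04. The kinase NUAK2 fell by 0.82 ± 0.20 and 0.89 ± 0.20, IGFBP3, which binds insulin-like growth factors, by 0.76 ± 0.18 and 0.88 ± 0.18, and FJX1 by 0.43 ± 0.13 and 0.82 ± 0.13. These 4 genes were called at 3 h after both particles, as CTGF, CYR61 and AMOTL2 were. TGFB2 fell by 0.76 ± 0.18 after SM30, although its second probe gave -0.13. TGFB2, IGFBP3, VGLL4, TEAD3 and ITGA5 were also called between both 3 h control sets. In the SM30 controls against the AS30 controls, 2 of these 16 genes were higher and 0 lower. Of the 15 Hippo genes 3 were higher and 2 lower, and of the 6 effectors 0 were higher and 1 lower. Over all 28620 probes 4479 were higher and 3189 lower. NT5E, the gene for the ectonucleotidase CD73, went the other way and rose by 1.17 ± 0.20 after SM30 (limma adjusted p = 0.0027), with 0.73 ± 0.20 after AS30 at 3 h (limma adjusted p = 0.052), and its second probe was called after both (limma adjusted p = 0.0096 and 0.018).

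**Figure D5:**
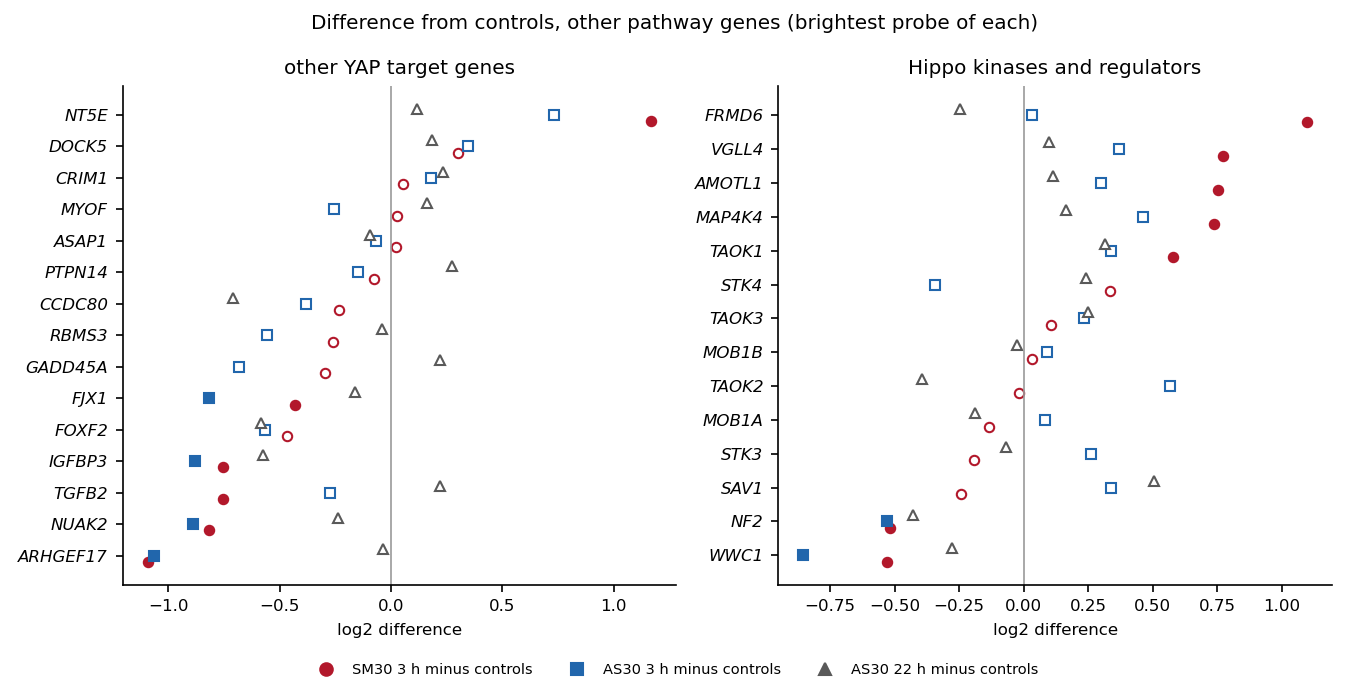
Points are log2 differences from controls on the x axis for the brightest probe of each gene on the y axis, ordered by the SM30 value, filled where called. Circles are SM30 at 3 h, squares AS30 at 3 h and triangles AS30 at 22 h, and LATS1 and F3, which were dim in a whole group, are left out. ARHGEF17, NUAK2, IGFBP3 and FJX1 are filled and below 0 for both particles at 3 h, and no triangle is filled.

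Serum response factor and its cofactors MRTFA and MRTFB read actin dynamics and share CTGF and CYR61 as targets with YAP. Of 19 cytoskeletal genes on that list, 0 rose and 1 fell after SM30 and after AS30 at 3 h. Over all probes 8.78% and 4.59% were called, so these counts are near the background. The gene was SRF itself, which fell by 0.47 ± 0.13 and 0.59 ± 0.13 (limma adjusted p = 0.037 and 0.021). Of its other probes, 1 of 2 was called in each comparison, and the dimmest gave 0.44 after AS30. The medians of the list were 0.06 and -0.15. Of 16 adhesion and force-sensing genes, 2 rose and 0 fell after each particle at 3 h. Over all probes 4.79% rose after SM30 and 2.4% after AS30 at 3 h. ITGA2, the collagen-binding integrin subunit, rose by 2.89 ± 0.47 after SM30 and 1.52 ± 0.38 after AS30, and ITGA5, the fibronectin-binding subunit, by 1.14 ± 0.21 and 0.78 ± 0.21 (limma adjusted p from 0.0028 to 0.046). All 4 ITGA2 probes were called after SM30 and 2 of 4 after AS30, and the brightest was missing on array B of the SM30 group and of its controls. No gene of either list was called at 22 h. Between the 3 h control sets, 6 of the 19 cytoskeletal and 7 of the 16 adhesion genes were lower in the SM30 controls, and 0 of either were higher. Over all probes 26.8% were called in that comparison. Of the 3 tested relatives of CTGF and CYR61 in the CCN family, CCN3 rose at 22 h after AS30, by 2.25 ± 0.53 (limma adjusted p = 0.026), and its second probe gave 1.38 and was not called.

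The pattern over arrays was compared by Pearson's r of the level minus the mean of the set's own controls, over 18 arrays. The arrays share treatments and controls, so r is a description. CTGF and CYR61 were close to each other (r = 0.93), AMOTL2 was close to CTGF (r = 0.86) and CYR61 (r = 0.78), and AXL was nearer to AMOTL2 (r = 0.73) than to CTGF (r = 0.54) or CYR61 (r = 0.35). LATS2 ran opposite to the others, with r from -0.59 to -0.33. Among 15759 probes ranked, the genes most like CTGF were ARID1A, CYR61 and PPRC1 (r = 0.95, 0.93 and 0.93), and those most like CYR61 were TMEM80, CTGF and UBTF (r = 0.95, 0.93 and 0.93). SMARCE1, DNAAF2 and POLR1B were most like AMOTL2 (r = 0.94, 0.94 and 0.93), PTMA, DEFB4A and PYCR1 most like AXL (r = 0.92, 0.90 and 0.89), and ACIN1, ARFGEF2 and RSF1 most like LATS2 (r = 0.91, 0.91 and 0.90). ANKRD1, with missing arrays, was not ranked.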

How the data were processed

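Per the file headers, the authors scanned 1 array per file with Agilent Feature Extraction 10.5.1.1, and the deposited processed signal is a spot intensity on a linear scale after the software's background subtraction. The authors also deposited a table of linear intensities, quantile normalized and averaged over replicate spots, which was used as an alternative only. Columns of per-sample values left unused numbered 0. Groups and letters came from the sample titles.

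The log2 of the processed signal of 43376 non-control spots was quantile normalized over 18 arrays. Spots that were not positive and significant, and outlier spots, were set to missing, replicate spots were averaged, and probes with over 33% missing values were removed, which left 28665 of 41000. Limma 3.58.1 (R 4.3.3) was fitted to the means of 6 groups of 3 arrays, with the Benjamini-Hochberg threshold at 0.05. The fit was tested on simulated data with independent noise on each array and changes in the SM30 group only. That simulation held no slide or scan effect, so it does not cover those batches. Arrays replace counts here, so their number limits the precision. Symbols were updated through RefSeq accessions.

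The members and gene lists were chosen with earlier results of these data known. Named genes are the members and, from each list and comparison, the called genes, at most the 4 of largest change, with YAP1, WWTR1 and TEAD1 to TEAD4 always. TAOK1, beyond that number, was named after its value was seen. Alternatives covered scaling, background correction, filters, the deposited table, blocks for letter, slide and scan, the arrays fitted, other probes and each array left out; scan was added after seeing the data. Letters were checked as pairs: same-letter arrays deviated together with correlations from -0.09 to 0.48 over 23030 probes. This did not settle whether letters are pairs. The main fit used group means, with pairs as an alternative. Of the listed fibroblast, endothelial and leukocyte markers, 1 of 4, 1 of 3 and 2 of 3 passed the filter, and 0 of these were called against controls.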

Additional observations from a re-analysis of the deposited data

How the results depend on the processing

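Over the 30 to 32 alternatives run for each gene, the falls of CTGF, CYR61 and AMOTL2 at 3 h kept their direction, with ranges of -1.21 to -0.76, -0.85 to -0.73 and -1.10 to -0.69 after SM30, and of -1.46 to -0.89, -1.35 to -1.06 and -0.93 to -0.68 after AS30. The number of members called after SM30 fell from 4 to 0 with slide or scan as a fixed block. After AS30 at 3 h it fell from 3 to 0 with slide or scan as a fixed block and when only the arrays compared were fitted. At 22 h it rose from 0 to 1, CTGF, with normexp background correction, with probes required to be well above background on every array and with slide as a random block. For the 22 h response minus the 3 h response it rose from 0 to 1, CYR61, with slide as a random block. With single arrays left out, both counts ranged from 0 to 1, and reached 1 without AS30 control C at 3 h, and also without AS30 array C at 3 h for the former and without AS30 array B at 22 h for the latter. The cause was not tested. With same-letter pairs as a replicate block, 4 members were called after SM30, against 2146 of 28664 probes. After AS30 at 3 h 2 members were called, against 720 of 28596 probes, and AMOTL2 had a limma adjusted p of 0.065. In the check of letters as pairs, 6 of 9 arrays correlated best with their own letter.

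The AMOTL2 call after AS30 at 3 h was lost without SM30 C, SM30 control B, any AS30 array at 3 h or AS30 control A or B at 3 h. The LATS2 call after SM30 was lost without any SM30 array, SM30 control B or C, AS30 C or control B at 3 h, or AS30 A or control B at 22 h.

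None of the differences that changed sign was called, and the largest, for LATS2 between the 3 h control sets, went from 0.18 to -0.46. With slide or scan as a fixed block LATS2 differed by -0.10 after AS30 at 3 h and -0.068 at 22 h, and between the 3 h control sets by -0.32 with slide and -0.46 with scan. CTGF differed between these control sets by -0.091 with slide and -0.030 with scan, AMOTL2 by -0.011 with slide and CYR61 by -0.31 on its dimmest probe. SM30 minus AS30 was -0.040 for CTGF with scan as a block and -0.11 for LATS2 on its second probe. On that probe LATS2 gave -0.26 for 22 h minus 3 h and 0.072 between the AS30 controls, and normexp gave -0.0080 for the former. With single arrays left out, LATS2 ranged from -0.031 to 0.22 after AS30 at 3 h, from -0.079 to 0.18 for 22 h minus 3 h and from -0.20 to 0.053 between the AS30 controls, and AMOTL2 from -0.30 to 0.11 for SM30 minus AS30.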
